A study of Mus musculus with 36 samples.

Results

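The 38 genes described here encode the proteins that license replication origins, open and copy DNA, supply its nucleotides and repackage it, together with the E cyclins and a pair of E2F factors that act on them. They were chosen by gene name, and all 38 were found in each of 3 tables of normalized read counts, which hold 18256 genes for PDA cells, 19834 for E14 cells and 18758 for organoids. All 38 also passed the filter on low values in each table, so no member was lost before testing.

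The libraries are 20 mouse RNA-seq samples from 3 cultures. The line KSIC_806, from pancreatic ductal adenocarcinoma (PDA), was labelled WT or KO for the zinc finger factor gene Rreb1. It received either SB505124 (SB), which blocks the kinase of the type I TGFβ receptor, at 2.5 µM for 6 h or TGFβ at 100 pM for 1.5 h. Each of the 4 groups had 2 libraries. Mouse E14 embryonic stem cells, also labelled WT or KO for Rreb1, were taken at day 0 and as embryoid bodies (aggregates in which stem cells differentiate) at day 4, again with 2 libraries in each of 4 groups. Organoids named CIY, of pancreatic epithelial cells, were plated without doxycycline or with 1 µg/mL of it and received SB for 6 h or TGFβ for 1.5 h at the same doses, with 1 library in each of 4 conditions. What doxycycline switched on, the mark S4 carried by the PDA labels, the KO alleles and whether a KO line is 1 clone are not given in the sources used here. No untreated PDA or organoid library was analysed here, so each TGFβ value is read against receptor inhibition, and the agents also differ in time. No label states whether the replicates are separate cultures. The p-values then measure the spread between these libraries, which may be technical.

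Before a cell copies its DNA, the origin recognition complex, with CDC6 and CDT1, loads the MCM2–7 helicase in an inactive form on origins, a step called licensing. In S phase CDC45 and the GINS complex join the loaded MCM ring and start unwinding. Polymerases α, δ and ε then copy the strands, with δ and ε clamped to the template by PCNA. Many of these genes are transcribed from E2F-bound promoters near the start of S phase, and cyclin E with CDK2 frees E2F from the retinoblastoma protein.

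Depth ranged from 19.89 M to 44.5 M reads a library, and in the PDA set KO SB replicate 1 was the shallowest at 20.41 M. As a check of the labels, Rreb1 was read first. In PDA cells Rreb1 was at 1458 and 1501 (SB) and 4293 and 4212 (TGFβ) in WT, and at 2164 and 2195 (SB) and 2886 and 2560.4 (TGFβ) in KO. In E14 cells it was at 1085 and 1019 (day 0) and 1482 and 1586 (day 4) in WT, and at 2642 and 2830.0 (day 0) and 1920.5 and 1512 (day 4) in KO. Its gene count was therefore not near 0 in any library labelled KO and was higher in KO than in WT under SB and at day 0. A gene-level count does not show whether the protein is made, so WT and KO below mean the libraries labelled so. The 8 epithelial markers summed to between 383587 and 608672 in the PDA libraries. Krt7, Krt8, Krt18, Krt19 and Cdh1 made nearly all of that sum, each at 15980.6 or more in every PDA library. The others were low or absent there, with Epcam at 68.4 to 357.3, Cldn7 at 0 to 3.3 and Esrp1 at 0 to 2.0. The 8 pluripotency markers summed to between 148986 and 155635 at day 0. Immune markers summed to 179.0 or less in every PDA library. In bulk libraries such as these, fewer cells in S phase and less RNA of these genes per cell cannot be told apart.

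Promoter sequence was available in RefSeq (GRCm38.p6) for 31 of the 38 members, as the 250 bases before and 50 after each annotated start. An E2F word, meaning one of TTTCCCGC, TTTCGCGC, TTTGCCGC and TTTGGCGC on either strand, was present in 14 of the 31, or 45.2%, against 2.6% of 27025 genes with a promoter of the same length. TTTCGCGC and the reverse complement of TTTGGCGC can overlap. With the first T dropped, 21 members (67.7%) held a word, against 10.9% of all genes, and in the 250 bases before the start alone, 8 members (25.8%) held an 8-letter word, against 2.16%. CCAAT, the NF-Y box, can share bases with these words, as it does at 1 place in Mcm7. It was in 18 of the 31 (58.1%) and in 41.1% of all genes. A match is a run of letters and not a measured binding site. The sequences below show 5 members that hold an E2F word (Mcm3, Mcm5, Mcm6, Mcm7 and Cdc6) and 2 that hold none (Mcm2 and Mcm10) so that helicase and licensing genes with and without the letters can be compared. Each run goes 5′ to 3′ on the gene's strand, from 250 bases before the start to 30 after it, with E2F words and CCAAT of either strand in capitals. They lie at chr1:20820283-20820562, minus strand (Mcm3), chr8:75109259-75109538, plus strand (Mcm5), chr1:128359676-128359955, minus strand (Mcm6), chr5:138171854-138172133, minus strand (Mcm7), chr11:98907901-98908180, plus strand (Cdc6), chr6:88898751-88899030, minus strand (Mcm2) and chr2:5012762-5013041, minus strand (Mcm10).
Mcm3: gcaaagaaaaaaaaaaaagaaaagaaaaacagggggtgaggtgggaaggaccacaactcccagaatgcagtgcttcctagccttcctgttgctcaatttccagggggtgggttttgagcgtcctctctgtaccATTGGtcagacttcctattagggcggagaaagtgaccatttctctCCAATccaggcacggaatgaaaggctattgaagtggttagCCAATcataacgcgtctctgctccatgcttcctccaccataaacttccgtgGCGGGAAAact
Mcm5: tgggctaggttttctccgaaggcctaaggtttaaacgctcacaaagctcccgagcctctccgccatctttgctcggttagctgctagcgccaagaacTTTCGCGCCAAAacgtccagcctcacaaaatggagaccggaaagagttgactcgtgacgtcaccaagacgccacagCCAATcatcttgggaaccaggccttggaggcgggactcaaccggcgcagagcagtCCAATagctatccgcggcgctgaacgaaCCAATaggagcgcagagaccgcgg
Mcm6: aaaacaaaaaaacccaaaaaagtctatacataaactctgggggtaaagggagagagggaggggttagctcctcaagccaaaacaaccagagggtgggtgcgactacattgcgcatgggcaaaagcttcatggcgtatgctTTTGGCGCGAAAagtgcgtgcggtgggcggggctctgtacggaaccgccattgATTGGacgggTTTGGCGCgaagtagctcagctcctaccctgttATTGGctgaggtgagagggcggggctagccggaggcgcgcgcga
Mcm7: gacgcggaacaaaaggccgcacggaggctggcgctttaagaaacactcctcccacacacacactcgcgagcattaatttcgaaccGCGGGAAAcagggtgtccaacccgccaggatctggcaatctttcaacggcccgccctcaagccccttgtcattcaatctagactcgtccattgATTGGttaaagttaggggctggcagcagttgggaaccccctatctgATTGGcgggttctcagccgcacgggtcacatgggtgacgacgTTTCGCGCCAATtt
Cdc6: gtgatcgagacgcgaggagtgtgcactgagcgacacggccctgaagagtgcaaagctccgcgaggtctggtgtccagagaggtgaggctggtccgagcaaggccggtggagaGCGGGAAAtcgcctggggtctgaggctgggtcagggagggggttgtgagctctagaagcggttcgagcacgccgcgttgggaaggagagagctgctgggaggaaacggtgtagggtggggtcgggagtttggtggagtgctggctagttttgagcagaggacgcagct
Mcm2: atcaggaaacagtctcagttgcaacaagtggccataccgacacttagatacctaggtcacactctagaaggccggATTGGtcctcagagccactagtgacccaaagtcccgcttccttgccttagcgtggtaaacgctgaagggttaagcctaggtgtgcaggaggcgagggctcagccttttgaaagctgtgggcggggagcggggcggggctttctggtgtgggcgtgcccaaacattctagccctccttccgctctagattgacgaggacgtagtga
Mcm10: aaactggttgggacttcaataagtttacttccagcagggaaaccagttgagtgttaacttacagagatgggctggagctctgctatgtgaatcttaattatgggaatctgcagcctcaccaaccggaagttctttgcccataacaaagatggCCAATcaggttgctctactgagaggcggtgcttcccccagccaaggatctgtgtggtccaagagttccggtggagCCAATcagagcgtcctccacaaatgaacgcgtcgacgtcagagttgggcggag

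In PDA cells most of the 38 genes rose under TGFβ in KO, and fewer passed the test in WT. Calls were made with limma at an adjusted p under 0.05 over all 13226 genes tested. In WT, 16 of 38 members rose and none fell, with a median log2 fold change of 0.24 (1.18-fold) against 0.00 over all genes, where 19.4% of genes rose and 17.6% fell (36.9% together). In KO, 32 rose and 1, Cdc6, fell, with a median of 0.62 (1.54-fold) against 0.02 over all genes, where 20.6% rose and 18% fell (38.7% together). All 16 members that rose in WT also rose in KO, as a share 100% of the first set and 50% of the second. The summed level of the 38 genes was 138853 and 136591 (SB) and 173548 and 175065 (TGFβ) in WT. In KO it was 110361 and 109867 (SB) and 179577 and 183146 (TGFβ). The sum was thus lowest in both KO SB libraries and highest in both KO TGFβ libraries, with no overlap between any of the 4 groups. The order of the TGFβ groups depended on the scaling. As a share of all counts in a library, the members were at 0.485% and 0.488% in WT TGFβ. In KO TGFβ the share was lower, at 0.473% and 0.483%, and KO SB stayed lowest, at 0.269% in both libraries. Scaling every library to the same total, in place of the deposited factors, moved the all-gene median of the KO response to 0.13 and that of the members to 0.73, so the members stood above all genes under both scalings. Without either WT TGFβ library (replicate 1 or 2) the WT count was 10. Leaving out any of the other PDA libraries kept it between 15 and 19, and the KO count ran from 23 to 36.

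The difference between the responses was tested as an interaction. It was above 0 and past the threshold for 19 of 38 members and below 0 for none (9.71% of all genes were called higher and 12.1% lower, 21.8% together), with a median of 0.38 against −0.01 over all genes. This count rested on few libraries: it was 2 and 3 when WT TGFβ replicates 1 and 2 were left out in turn, 4 and 3 when KO SB replicates 1 and 2 were, and 11 when KO TGFβ replicate 2 was. The median stayed between 0.37 and 0.40 in these fits. KO began lower. Under SB, 23 members were lower in KO than in WT and none was higher (28.9% of genes higher, 27.2% lower, 56.2% together, median −0.36 over members and 0.00 over all genes). Under TGFβ 6 members were higher and 5 lower in KO than in WT (21.2% and 19% of genes, 40.2% together, median −0.05 over members and −0.02 over all genes). Members were thus called less often than all genes, in either direction. With libraries rescaled to the same total the balance turned to 2 higher and 10 lower, with a median of −0.14. The count fell to 2 higher and 0 lower without WT TGFβ replicate 1 or replicate 2, to 2 higher and 3 lower without KO SB replicate 1 or replicate 2, and to 2 higher without KO TGFβ replicate 2. The TGFβ and genotype comparisons share libraries, so their values are given side by side and are not independent.

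**Figure D1:**
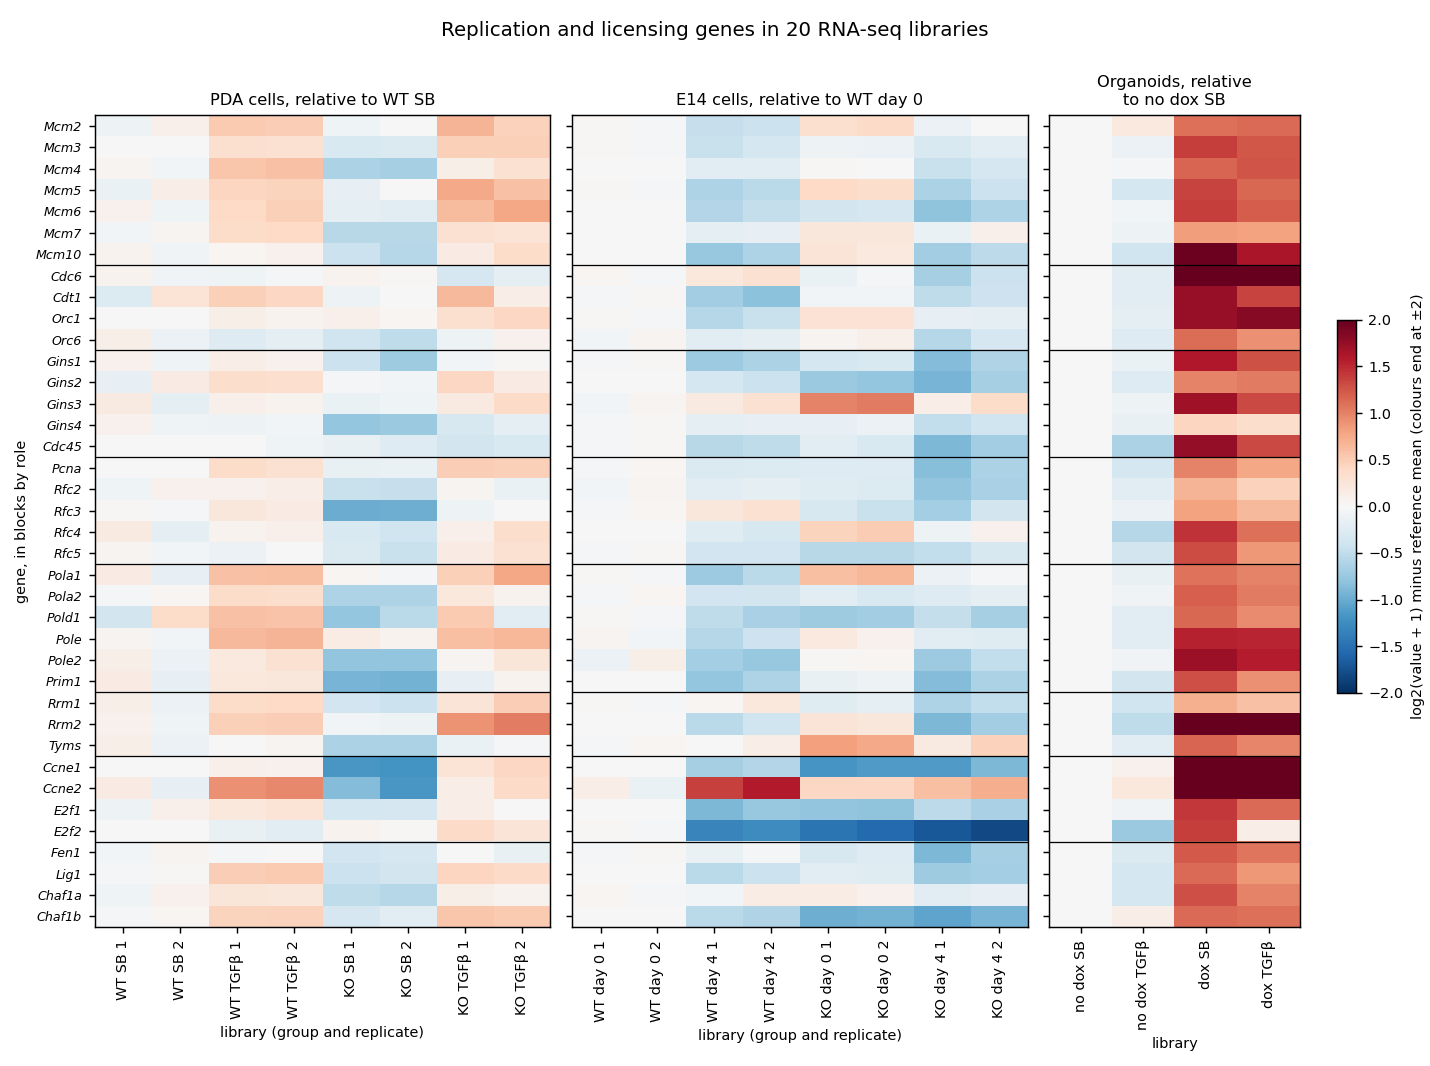
Level of each of the 38 genes (rows, in blocks by role) in each of the 20 libraries (columns), as log2(value + 1) minus the mean of the reference group of that table (WT SB, WT day 0, or no doxycycline SB). In the PDA panel KO SB is mostly blue and both TGFβ groups mostly red, day 4 is mostly blue in the E14 panel, and all 38 rows are red in the organoid library given doxycycline and SB.

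The MCM genes, which encode the helicase ring and its partner MCM10, rose most evenly. Of the 7 members in this role 6 rose in WT (all but Mcm10) and 7 in KO, with medians of 0.44 and 0.77. Mcm7, a ring subunit, was at 10858 and 11603 (SB) and 14511 and 14744 (TGFβ) in WT, and at 7667 and 7636 (SB) and 13801 and 13582 (TGFβ) in KO. The groups did not overlap, KO SB lay lowest, and the 2 libraries of a group differed little. TGFβ minus SB was 0.38 ± 0.06 (limma adjusted p = 0.00239) in WT and 0.84 ± 0.06 (limma adjusted p = 4.85e-05) in KO as log2 fold change ± SE, and the interaction was 0.46 ± 0.08 (limma adjusted p = 0.0102). Mcm2, another ring subunit, was at 6402 and 7377 (SB) and 9905 and 9644 (TGFβ) in WT, and at 6440.5 and 6801 (SB) and 10978 and 9439.5 (TGFβ) in KO. Both SB groups overlapped, as did both TGFβ groups, and every TGFβ library lay above every SB library. Its response was 0.51 ± 0.10 (limma adjusted p = 0.00573) in WT and 0.62 ± 0.10 (limma adjusted p = 0.00207) in KO. Mcm5 was at 5693 and 6846 (SB) and 8453 and 8497 (TGFβ) in WT, and at 5566 and 6190.0 (SB) and 10599 and 9379 (TGFβ) in KO, again with all TGFβ libraries above all SB libraries. For Mcm5, TGFβ minus SB was 0.44 ± 0.11 (limma adjusted p = 0.0151) in WT and 0.76 ± 0.11 (limma adjusted p = 0.00122) in KO. Mcm10, which helps to activate the loaded helicase, was at 2474 and 2224 (SB) and 2407 and 2485 (TGFβ) in WT, and at 1739.8 and 1578 (SB) and 2626 and 3033 (TGFβ) in KO. Its WT groups overlapped while both KO SB libraries lay below the rest and both KO TGFβ libraries above all WT libraries, with a response of 0.06 ± 0.10 (limma adjusted p = 0.668) in WT, 0.77 ± 0.10 (limma adjusted p = 8.00e-04) in KO and an interaction of 0.71 ± 0.14 (limma adjusted p = 0.0122). Mcm3, Mcm4 and Mcm6 rose by 0.31 to 0.57 in WT and by 0.77 to 0.90 in KO on the log2 scale.

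Of the 4 origin licensing genes none passed the threshold in WT, and in KO Orc1 and Orc6 rose while Cdc6 fell. Cdc6, the loader that bridges the origin complex and MCM, was at 2289.8 and 2058 (SB) and 2051 and 2134 (TGFβ) in WT, and at 2291 and 2217 (SB) and 1723 and 1891 (TGFβ) in KO. Both KO TGFβ libraries lay below all the others, and the response was −0.05 ± 0.08 (limma adjusted p = 0.65) in WT and −0.32 ± 0.08 (limma adjusted p = 0.0186) in KO. The KO call was lost with libraries rescaled to the same total (adjusted p = 0.0715) and without KO SB replicate 1 (0.115), KO SB replicate 2 (0.0773) or KO TGFβ replicate 1 (0.0836), all by limma. Cdt1, the partner of CDC6 in loading, was at 1847 and 2681 (SB) and 3107 and 2979 (TGFβ) in WT, and at 2074 and 2232 (SB) and 3490.2 and 2448 (TGFβ) in KO. The replicates of WT SB and of KO TGFβ lay far apart, and neither response passed the threshold (0.45 ± 0.20 (limma adjusted p = 0.121) in WT and 0.44 ± 0.20 (limma adjusted p = 0.126) in KO). Orc1, the origin complex subunit that recruits CDC6, was at 699 and 698 (SB) and 761 and 731 (TGFβ) in WT, and at 746 and 715 (SB) and 875 and 932 (TGFβ) in KO, highest in KO TGFβ. For Orc1, TGFβ minus SB was 0.09 ± 0.08 (limma adjusted p = 0.39) in WT and 0.31 ± 0.08 (limma adjusted p = 0.0188) in KO. Orc6, another subunit, was at 2834 and 2393 (SB) and 2179 and 2290.1 (TGFβ) in WT, and at 1967 and 1831 (SB) and 2423 and 2769 (TGFβ) in KO. It lay lower under TGFβ than under SB in WT and higher in KO, with values of −0.22 ± 0.11 (limma adjusted p = 0.139), 0.45 ± 0.11 (limma adjusted p = 0.0126) and an interaction of 0.67 ± 0.15 (limma adjusted p = 0.0193). The KO calls of Orc1 and Orc6 were lost without KO SB replicate 2 (limma adjusted p = 0.12 and 0.089).

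The helicase activators, GINS and CDC45, were called in KO in 2 of 5 cases and in WT in none. Gins1 was at 1096 and 966 (SB) and 1132 and 1089 (TGFβ) in WT, and at 762 and 630.5 (SB) and 989.7 and 1048 (TGFβ) in KO, with KO SB below every other library and a KO response of 0.55 ± 0.11 (limma adjusted p = 0.00685) against 0.11 ± 0.11 (limma adjusted p = 0.486) in WT. Gins4 was likewise lowest in KO SB, with a KO response of 0.51 ± 0.09 (limma adjusted p = 0.00296), −0.08 ± 0.09 (limma adjusted p = 0.489) in WT and an interaction of 0.59 ± 0.12 (limma adjusted p = 0.0147). Gins2 was at 819 and 1033 (SB) and 1179.5 and 1157 (TGFβ) in WT, and at 907 and 890.2 (SB) and 1232 and 1031 (TGFβ) in KO, where the WT SB libraries differed from each other and the response was 0.34 ± 0.13 (limma adjusted p = 0.0716) in WT and 0.33 ± 0.13 (limma adjusted p = 0.0827) in KO. Gins3 responded by 0.39 ± 0.14 in KO without passing the threshold (limma adjusted p = 0.0563). Cdc45, the remaining part of the active helicase, was at 2363 and 2384 (SB) and 2356 and 2232 (TGFβ) in WT, and at 2150.2 and 1995 (SB) and 1849.8 and 1916 (TGFβ) in KO. It lay in a narrow range, lowest in KO TGFβ. Its response was −0.05 ± 0.07 (limma adjusted p = 0.621) in WT and −0.14 ± 0.07 (limma adjusted p = 0.166) in KO, so Cdc6 and Cdc45 were the only members whose estimate was below 0 in both genotypes, and Cdc45 was lower in KO under SB (−0.20 ± 0.07 (limma adjusted p = 0.0463)) and under TGFβ (−0.28 ± 0.07 (limma adjusted p = 0.015)).

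The sliding clamp and the clamp loader rose in KO in all 5 cases and in WT in 1, Pcna. Pcna, the clamp itself, was at 9093 and 9067 (SB) and 11738 and 11234 (TGFβ) in WT, and at 8219 and 8244 (SB) and 12761 and 12685 (TGFβ) in KO. The groups did not overlap, and the response was 0.34 ± 0.06 (limma adjusted p = 0.00317) in WT, 0.63 ± 0.06 (limma adjusted p = 1.46e-04) in KO and 0.29 ± 0.08 (limma adjusted p = 0.0383) as the interaction. Rfc3, a loader subunit, was at 1715 and 1668 (SB) and 1985 and 1897 (TGFβ) in WT, and at 847 and 858 (SB) and 1573 and 1688 (TGFβ) in KO. Both KO SB libraries lay below every other library. Its response was 0.20 ± 0.07 (limma adjusted p = 0.0663) in WT and 0.93 ± 0.07 (limma adjusted p = 7.46e-05) in KO, and the interaction of 0.74 ± 0.10 (limma adjusted p = 0.00395) stayed past the threshold in every alternative run. Rfc4 was at 1193 and 925 (SB) and 1103 and 1131 (TGFβ) in WT, and at 853 and 800.2 (SB) and 1124 and 1337 (TGFβ) in KO, with WT SB replicates that enclosed the WT TGFβ values. For Rfc4, TGFβ minus SB was 0.09 ± 0.14 (limma adjusted p = 0.647) in WT and 0.57 ± 0.14 (limma adjusted p = 0.0136) in KO. Rfc2 rose in KO by 0.42 and Rfc5 by 0.61 on the log2 scale. Rfc5 was lower in KO than in WT under SB (−0.37 ± 0.09 (limma adjusted p = 0.00936)) and higher under TGFβ (0.29 ± 0.09 (limma adjusted p = 0.0364)). The latter call was lost under 9 of the alternatives, among them both rescalings, DESeq2 and leaving out WT TGFβ replicate 1 (adjusted p = 0.224).

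Of the 6 polymerase and primase genes 3 rose in WT (Pola1, Pola2 and Pole) and 5 in KO (all but Pold1). Pola1, the catalytic subunit of polymerase α, was at 2047 and 1633 (SB) and 2743 and 2760.4 (TGFβ) in WT, and at 1875 and 1797 (SB) and 2548 and 3125 (TGFβ) in KO, with every TGFβ library above every SB library. For Pola1, TGFβ minus SB was 0.59 ± 0.13 (limma adjusted p = 0.0103) in WT and 0.62 ± 0.13 (limma adjusted p = 0.00771) in KO. Pole, that of polymerase ε, was at 3090.1 and 2886 (SB) and 4666 and 4762 (TGFβ) in WT, and at 3315 and 3124 (SB) and 4528 and 4732 (TGFβ) in KO. All TGFβ libraries lay above all SB libraries, the genotypes differed little, and the response was 0.66 ± 0.07 (limma adjusted p = 3.44e-04) in WT and 0.52 ± 0.07 (limma adjusted p = 9.12e-04) in KO. Pole2 and Prim1, the second subunit of polymerase ε and the primase that lays the first RNA, split by both. Pole2 was at 794 and 676 (SB) and 837 and 903 (TGFβ) in WT, and at 422 and 422 (SB) and 765 and 870.1 (TGFβ) in KO, and its response was 0.25 ± 0.11 (limma adjusted p = 0.12) in WT and 0.95 ± 0.11 (limma adjusted p = 5.24e-04) in KO with an interaction of 0.70 ± 0.16 (limma adjusted p = 0.0196). Prim1 was at 2814 and 2222 (SB) and 2907 and 2910.3 (TGFβ) in WT, and at 1309 and 1296 (SB) and 2221 and 2632 (TGFβ) in KO. Its change was 0.22 ± 0.12 (limma adjusted p = 0.207), 0.89 ± 0.12 (limma adjusted p = 0.00122) and 0.67 ± 0.18 (limma adjusted p = 0.0324) in the same order. In both genes the KO SB libraries were well below all others. The interactions were lost under the replicate block (limma adjusted p = 0.0507 for Pole2 and 0.0708 for Prim1). Pold1, the catalytic subunit of polymerase δ, was at 1189 and 1972 (SB) and 2300.0 and 2274 (TGFβ) in WT, and at 899 and 1056 (SB) and 2199 and 1303 (TGFβ) in KO. Its replicates disagreed in WT SB and in KO TGFβ by more than in any other member, and neither response passed the threshold (0.58 ± 0.28 (limma adjusted p = 0.151) and 0.80 ± 0.28 (limma adjusted p = 0.0601)).

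Nucleotide supply genes rose in 2 of 3 cases in WT and in all 3 in KO. Rrm2, the regulated subunit of ribonucleotide reductase, was at 15048 and 13286 (SB) and 19594 and 19945 (TGFβ) in WT, and at 13625 and 13245 (SB) and 26393 and 28792 (TGFβ) in KO. Both SB groups overlapped, WT TGFβ lay above them and KO TGFβ above that. The response was 0.48 ± 0.08 (limma adjusted p = 0.00292) in WT and 1.04 ± 0.08 (limma adjusted p = 6.81e-05) in KO, the interaction 0.55 ± 0.11 (limma adjusted p = 0.0136), and KO exceeded WT under TGFβ by 0.48 ± 0.08 (limma adjusted p = 0.00213). Rrm1, the large subunit, was at 13168 and 11164 (SB) and 15617 and 16025 (TGFβ) in WT, and at 9256 and 9013 (SB) and 14569 and 17073 (TGFβ) in KO, lowest in KO SB. For Rrm1, TGFβ minus SB was 0.38 ± 0.10 (limma adjusted p = 0.0217) in WT and 0.79 ± 0.10 (limma adjusted p = 8.47e-04) in KO. Leaving out WT SB replicate 2 (adjusted p = 0.0677), WT TGFβ replicate 1 (0.101) or WT TGFβ replicate 2 (0.122) ended the WT call of Rrm1 by limma. Tyms, which makes thymidylate, was at 3389 and 2889 (SB) and 3138 and 3241 (TGFβ) in WT, and at 2027 and 2017 (SB) and 2869 and 3048 (TGFβ) in KO. KO SB lay apart below the rest, the other 3 groups shared a range, and the response was 0.03 ± 0.09 (limma adjusted p = 0.834) in WT and 0.55 ± 0.09 (limma adjusted p = 0.00227) in KO.

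The E cyclins had the largest TGFβ responses of the 38 in KO. Ccne1, the CDK2 partner that starts S phase, was at 1609.8 and 1616 (SB) and 1730.3 and 1719.9 (TGFβ) in WT, and at 720.1 and 700.2 (SB) and 1959 and 2158 (TGFβ) in KO. The WT groups lay close together, KO SB was below every other library and KO TGFβ above every one. Its response was 0.10 ± 0.07 (limma adjusted p = 0.349) in WT and 1.53 ± 0.07 (limma adjusted p = 9.02e-06) in KO, and the interaction of 1.44 ± 0.11 (limma adjusted p = 4.86e-04), the highest of the 38, stayed past the threshold in every alternative run. In KO relative to WT it was −1.18 ± 0.07 (limma adjusted p = 1.35e-05) under SB and 0.25 ± 0.07 (limma adjusted p = 0.0296) under TGFβ, and the latter was lost under 8 alternatives, among them DESeq2 (adjusted p = 0.0846) and leaving out KO TGFβ replicate 2 (0.155, limma). Ccne2, its paralog, was at 554 and 446 (SB) and 943 and 968 (TGFβ) in WT, and at 272 and 221 (SB) and 546 and 646 (TGFβ) in KO. It rose in both genotypes (0.94 ± 0.15 (limma adjusted p = 0.0027) in WT and 1.27 ± 0.15 (limma adjusted p = 5.59e-04) in KO), and it was lower in KO under SB (−1.02 ± 0.15 (limma adjusted p = 8.83e-04)) and under TGFβ (−0.69 ± 0.15 (limma adjusted p = 0.00865)), the latter lost without WT TGFβ replicate 1 (0.0526) or replicate 2 (0.0617). E2f1, an activator of these genes, was at 1321 and 1533 (SB) and 1647 and 1717 (TGFβ) in WT, and at 1116 and 1131 (SB) and 1559 and 1411 (TGFβ) in KO. For E2f1, TGFβ minus SB was 0.24 ± 0.09 (limma adjusted p = 0.0823) in WT and 0.40 ± 0.09 (limma adjusted p = 0.0128) in KO. E2f2 was at 1412 and 1425 (SB) and 1273 and 1220.0 (TGFβ) in WT, and at 1484 and 1439 (SB) and 1844 and 1698 (TGFβ) in KO. It lay lower under TGFβ in WT and higher in KO, with values of −0.19 ± 0.07 (limma adjusted p = 0.0851), 0.28 ± 0.07 (limma adjusted p = 0.0213) and an interaction of 0.46 ± 0.10 (limma adjusted p = 0.0205). The KO calls of both E2F genes were lost without KO SB replicate 1 (limma adjusted p = 0.078 for E2f1 and 0.088 for E2f2), and that of E2f2 under DESeq2 as well (0.0655).

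Genes for finishing lagging strands and for chromatin assembly rose in 3 of 4 cases in WT and in all 4 in KO, and all 4 were lower in KO under SB. Lig1, the ligase that joins Okazaki fragments, was at 4115 and 4251 (SB) and 5889 and 5996 (TGFβ) in WT, and at 3108 and 3240.4 (SB) and 5637 and 5449 (TGFβ) in KO. For Lig1, TGFβ minus SB was 0.51 ± 0.06 (limma adjusted p = 7.03e-04) in WT and 0.80 ± 0.06 (limma adjusted p = 6.81e-05) in KO. Fen1, the flap nuclease that trims them, was at 3937 and 4246 (SB) and 3983 and 4115 (TGFβ) in WT, and at 3144 and 3241 (SB) and 4085 and 3691 (TGFβ) in KO. The WT difference between treatments did not pass (−0.01 ± 0.08 (limma adjusted p = 0.9)), and KO SB was the lowest group (0.28 ± 0.08 (limma adjusted p = 0.0212) in KO, lost without KO SB replicate 1, adjusted p = 0.129). Chaf1a, the large subunit of the histone chaperone CAF-1, was at 3359.9 and 3779 (SB) and 4201 and 4178 (TGFβ) in WT, and at 2498 and 2411 (SB) and 3845 and 3721 (TGFβ) in KO. For Chaf1a, TGFβ minus SB was 0.23 ± 0.07 (limma adjusted p = 0.0424) in WT and 0.62 ± 0.07 (limma adjusted p = 5.80e-04) in KO. Chaf1b was at 1605 and 1706 (SB) and 2261 and 2276 (TGFβ) in WT, and at 1309 and 1429 (SB) and 2427 and 2392 (TGFβ) in KO. For Chaf1b, TGFβ minus SB was 0.45 ± 0.07 (limma adjusted p = 0.00286) in WT and 0.82 ± 0.07 (limma adjusted p = 1.52e-04) in KO. In both, every TGFβ library lay above every SB library of the same genotype.

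**Figure D2:**
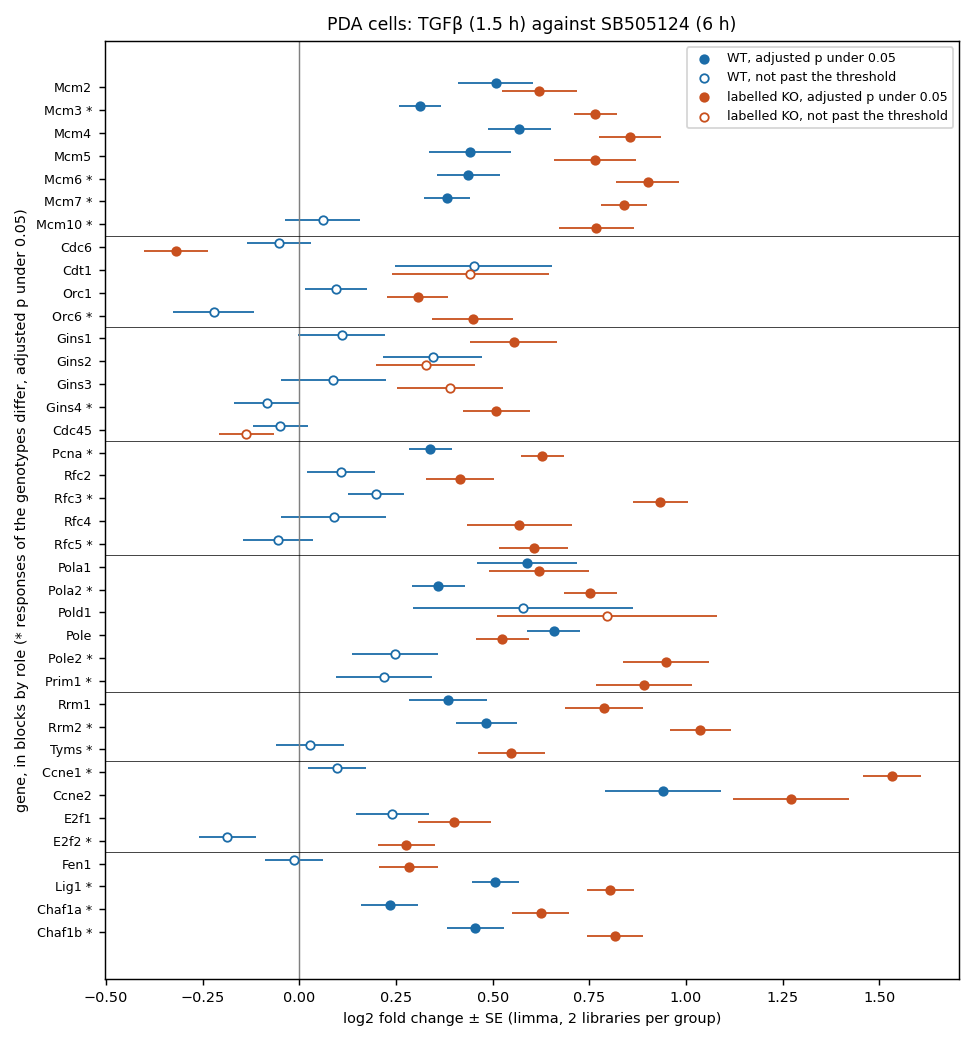
Log2 fold change ± SE of TGFβ (1.5 h) over SB505124 (6 h) for each member in WT (blue) and KO (orange) PDA cells, 2 libraries per group; filled points passed limma's adjusted p under 0.05, and a star marks a called interaction. Orange lies right of blue for 33 of the 38 genes, Ccne1 is farthest out at 1.53 in KO, and Cdc6 is the filled point left of 0.

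The libraries of a group did not always match. Between replicates, the log2 difference over the 38 members ran from −0.37 to 0.73 in WT SB and from −0.75 to 0.29 in KO TGFβ, against −0.08 to 0.12 in WT TGFβ. The widest gaps in both groups were those of Pold1. Cdt1, Mcm2, Gins2 and E2f1 were higher, and Prim1, Pola1 and Ccne2 lower, in WT SB replicate 2 than in replicate 1 and in KO TGFβ replicate 1 than in replicate 2. What set these gaps was not tested.

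A list of 51 further replication genes, chosen for function and with earlier results of these data known, had these counts. In PDA cells 15 rose and 2 fell in WT (median 0.13), where 19.4% and 17.6% of all genes did, so the total called was near the share over all genes. In KO 37 rose and 2 fell (median 0.55, 20.6% and 18% of all genes), and under SB 31 were lower and 2 higher in KO (27.2% and 28.9%). Gmnn encodes geminin, the CDT1 inhibitor that prevents licensing again in the same cycle. It was at 1789 and 1584 (SB) and 1962 and 2035 (TGFβ) in WT, and at 634 and 630.5 (SB) and 1341 and 1510.2 (TGFβ) in KO, with a KO response of 1.17 ± 0.09 (limma adjusted p = 7.90e-05), an interaction of 0.92 ± 0.13 (limma adjusted p = 0.00405) and −1.41 ± 0.09 (limma adjusted p = 1.54e-05) in KO relative to WT under SB. KO SB was well below the other groups, and KO TGFβ lay below WT TGFβ (−0.49 ± 0.09 (limma adjusted p = 0.00418)). Msh6, of the mismatch repair complex that follows the fork, responded by 1.35 ± 0.09 (limma adjusted p = 3.82e-05) in KO, and Uhrf1, which maintains DNA methylation after the fork, by 0.61 ± 0.09 (limma adjusted p = 0.00165) in WT and 1.17 ± 0.09 (limma adjusted p = 6.79e-05) in KO. Ung, a uracil glycosylase, was lower in KO under SB (−1.50 ± 0.12 (limma adjusted p = 4.13e-05)).

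In E14 cells most of the 38 genes were lower in embryoid bodies at day 4 than in stem cells at day 0, in both genotypes. In WT, 29 of 38 members fell and 3 rose (30.8% of the 15227 genes tested fell and 32.3% rose, 63.1% together), with a median log2 fold change of −0.42 against 0.00 over all genes. In KO, 27 fell and 1 rose (30.9% and 29.1%, 60% together), with a median of −0.40 against −0.02. Of these, 20 members fell in both genotypes, 69% of those in WT and 74.1% of those in KO. The summed level was 184027 and 183138 (day 0) and 136764 and 143404 (day 4) in WT. In KO it was 182556 and 181986 (day 0) and 130066 and 142701 (day 4). The sums split by day, and at each day the sums of the genotypes lay close together. As a share of all counts in a library, the members were at 0.764% and 0.760% (day 0) and 0.597% and 0.622% (day 4) in WT. In KO the share was lower at each day, at 0.740% and 0.719% (day 0) and 0.529% and 0.581% (day 4). The median log2 level of the members at day 0 was 11.675 and 11.659 in WT and 11.347 and 11.345 in KO, and the genotypes overlapped at day 4. Of the 3 members that rose in WT (Cdc6, Rfc3 and Ccne2), fewer were called when any single WT library was left out. The rise of the 1 member in KO (E2f1) was lost without KO day 0 replicate 1 or replicate 2 or KO day 4 replicate 1. Without KO day 4 replicate 1 other members were called higher instead.

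Day, culture form and cell type changed together. The pluripotency markers summed to 155209 to 155635 in WT and 148986 to 155609 in KO at day 0, and at day 4 to 47132 to 49496 in WT and 86460 to 89398 in KO. Streak and mesoderm markers summed at day 4 to 9001 to 15495 in WT and to 773.0 to 782.6 in KO, and fibroblast markers to 3682 to 4907 in WT and 621.9 to 834.1 in KO. The part of these differences in the replication genes was not tested.

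The interaction went both ways: 10 members had a higher change in KO and 11 a lower one (27.1% and 28.6% of genes, 55.7% together), with a median of −0.04 over members and −0.01 over all genes. The members called were thus near the share over all genes in each direction. The lower count was 6 without WT day 4 replicate 2. At day 0, 11 members were higher and 17 lower in KO than in WT (33.9% and 33.3% of genes, 67.2% together, median −0.12), and at day 4, 8 were higher and 19 lower (27.8% and 28.4%, 56.2% together, median −0.11). The higher count at day 0 was 7 without WT day 0 replicate 2 or KO day 0 replicate 1, and at day 4 it was 5 without WT day 4 replicate 1 and 4 with libraries rescaled to the same total. The day 4 median was −0.20 without KO day 4 replicate 2 and −0.21 after rescaling or quantile normalization, and the day 0 median was −0.23 after quantile normalization. The interaction median changed sign, to 0.02, without WT day 4 replicate 2 or KO day 4 replicate 1.

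Of the 7 MCM genes 6 fell in WT and 6 in KO. Mcm7 was the one that did not pass in WT and Mcm3 the one in KO. Mcm5 was at 13678 and 13359 (day 0) and 8771 and 9277 (day 4) in WT, and at 17778 and 17217 (day 0) and 8682 and 10029.7 (day 4) in KO. KO was above WT at day 0 (0.37 ± 0.08 (limma adjusted p = 5.32e-04)) and overlapped it at day 4, and the change was −0.58 ± 0.08 (limma adjusted p = 1.06e-05) in WT and −0.91 ± 0.08 (limma adjusted p = 1.59e-07) in KO. Mcm2 was at 12487 and 12188 (day 0) and 9004 and 9161 (day 4) in WT, and at 15464 and 16029 (day 0) and 11416 and 12434 (day 4) in KO, higher in KO at both days. For Mcm2, day 4 minus day 0 was −0.44 ± 0.07 (limma adjusted p = 4.87e-05) in WT and −0.40 ± 0.07 (limma adjusted p = 1.29e-04) in KO. Mcm10 was at 5330.1 and 5248 (day 0) and 3128 and 3454 (day 4) in WT, and at 6329.6 and 6023 (day 0) and 3259 and 3662 (day 4) in KO. For Mcm10, day 4 minus day 0 was −0.69 ± 0.07 (limma adjusted p = 1.87e-06) in WT and −0.84 ± 0.07 (limma adjusted p = 3.05e-07) in KO. In all 3 genes no day 4 library reached a day 0 library of the same genotype. Mcm7 was at 13938 and 14162 (day 0) and 12321 and 12574 (day 4) in WT, and at 16432 and 16524 (day 0) and 12859.5 and 15060.3 (day 4) in KO, with a change of −0.17 ± 0.08 (limma adjusted p = 0.0579) in WT and −0.24 ± 0.08 (limma adjusted p = 0.0127) in KO.

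Of the licensing factors Cdt1, Orc1 and Orc6 fell in both genotypes, and Cdc6 moved in opposite directions. Cdc6 was at 1537 and 1458 (day 0) and 1739.5 and 1854 (day 4) in WT, and at 1368 and 1455 (day 0) and 949 and 1114 (day 4) in KO. It rose in WT (0.26 ± 0.08 (limma adjusted p = 0.0148)) and fell in KO (−0.46 ± 0.08 (limma adjusted p = 3.47e-04)), with an interaction of −0.72 ± 0.12 (limma adjusted p = 1.74e-04), and at day 4 both KO libraries lay below all others. The WT call was lost without WT day 0 replicate 2 (limma adjusted p = 0.109) or WT day 4 replicate 2 (0.128). Cdt1 was at 5371 and 5549 (day 0) and 3365 and 3076 (day 4) in WT, and at 5259 and 5251 (day 0) and 3859 and 4092 (day 4) in KO. It fell in both, more in WT (−0.76 ± 0.07 (limma adjusted p = 2.29e-07)) than in KO (−0.40 ± 0.07 (limma adjusted p = 1.31e-04)), with an interaction of 0.36 ± 0.09 (limma adjusted p = 0.00522). Orc1 was at 3260.4 and 3173 (day 0) and 2170.1 and 2369.6 (day 4) in WT, and at 3949 and 3920.0 (day 0) and 2884 and 2801 (day 4) in KO, higher in KO at both days. For Orc1, day 4 minus day 0 was −0.50 ± 0.07 (limma adjusted p = 1.34e-05) in WT and −0.47 ± 0.07 (limma adjusted p = 3.10e-05) in KO. Orc6 was at 1997 and 2148 (day 0) and 1789.5 and 1819 (day 4) in WT, and at 2156 and 2212 (day 0) and 1394 and 1634 (day 4) in KO. For Orc6, day 4 minus day 0 was −0.20 ± 0.08 (limma adjusted p = 0.0431) in WT and −0.53 ± 0.08 (limma adjusted p = 5.48e-05) in KO. The WT call of Orc6 was lost under 9 alternatives, DESeq2 among them (adjusted p = 0.0582).

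Among the helicase activators, Cdc45, Gins1 and Gins4 fell in both genotypes, and the interaction was called for Gins2 and Gins3. For Gins4, day 4 minus day 0 was −0.19 ± 0.07 (limma adjusted p = 0.0371) in WT and −0.30 ± 0.07 (limma adjusted p = 0.0027) in KO. Cdc45 was at 2153 and 2218 (day 0) and 1491 and 1537 (day 4) in WT, and at 1889.9 and 1766 (day 0) and 1166 and 1356 (day 4) in KO. For Cdc45, day 4 minus day 0 was −0.53 ± 0.08 (limma adjusted p = 5.04e-05) in WT and −0.54 ± 0.08 (limma adjusted p = 4.98e-05) in KO. Gins1 was at 1223 and 1255 (day 0) and 746 and 802 (day 4) in WT, and at 967 and 1000.1 (day 0) and 679 and 815 (day 4) in KO. For Gins1, day 4 minus day 0 was −0.68 ± 0.09 (limma adjusted p = 1.78e-05) in WT and −0.40 ± 0.09 (limma adjusted p = 0.00175) in KO. Gins2 was at 1225 and 1223 (day 0) and 964 and 910.2 (day 4) in WT, and at 730.3 and 717 (day 0) and 642 and 771 (day 4) in KO. Its KO level was low at both days and its change did not pass (−0.04 ± 0.09 (limma adjusted p = 0.718)), while WT fell (−0.39 ± 0.09 (limma adjusted p = 0.00208)). Gins3, chosen by its values as one of the extreme members, was at 329 and 354 (day 0) and 386 and 419.6 (day 4) in WT, and at 681 and 705 (day 0) and 372 and 439.6 (day 4) in KO. KO at day 0 was 2.03-fold above WT (1.02 ± 0.11 (limma adjusted p = 1.32e-06)), and the day 4 levels overlapped, so the interaction was −1.01 ± 0.15 (limma adjusted p = 7.18e-05). The GINS complex holds its 4 subunits together in equal numbers, and here Gins2 and Gins3 differed between the genotypes at day 0 in opposite directions.

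Pcna was at 6295 and 6632 (day 0) and 5259.9 and 5369 (day 4) in WT, and at 5408 and 5395 (day 0) and 3593 and 4152 (day 4) in KO. For Pcna, day 4 minus day 0 was −0.28 ± 0.07 (limma adjusted p = 0.00377) in WT and −0.48 ± 0.07 (limma adjusted p = 5.46e-05) in KO, and was lower in KO at both days. Of the loader genes, Rfc2 and Rfc4 fell in both genotypes. Rfc3 rose in WT (0.27 ± 0.10 (limma adjusted p = 0.029)) and Rfc5 fell in WT (−0.39 ± 0.07 (limma adjusted p = 1.98e-04)), and neither passed in KO. The Rfc3 call was lost without any 1 of the 4 WT libraries, WT day 0 replicate 1 (0.16) and replicate 2 (0.0598), and WT day 4 replicate 1 (0.0799) and replicate 2 (0.188), as limma adjusted p. Rfc4 was at 1635 and 1669 (day 0) and 1394 and 1319.5 (day 4) in WT, and at 2242 and 2351 (day 0) and 1537 and 1749 (day 4) in KO, higher in KO at both days. For Rfc4, day 4 minus day 0 was −0.28 ± 0.08 (limma adjusted p = 0.00511) in WT and −0.49 ± 0.08 (limma adjusted p = 8.62e-05) in KO. All 6 polymerase and primase genes fell in WT and 4 in KO (Pola1, Pole, Pole2 and Prim1). Pola1 was at 4326 and 4169 (day 0) and 2567 and 2909.5 (day 4) in WT, and at 6435 and 6747 (day 0) and 3929 and 4179 (day 4) in KO, higher in KO at both days (0.63 ± 0.07 (limma adjusted p = 2.89e-06) at day 0 and 0.57 ± 0.07 (limma adjusted p = 1.24e-05) at day 4). Pold1 was at 5932 and 5717 (day 0) and 4108 and 3717 (day 4) in WT, and at 3563 and 3579.6 (day 0) and 4203 and 3670.5 (day 4) in KO. WT at day 0 stood above the other 3 groups, with a change of −0.58 ± 0.08 (limma adjusted p = 1.36e-05) in WT, 0.14 ± 0.08 (limma adjusted p = 0.134) in KO and an interaction of 0.71 ± 0.11 (limma adjusted p = 7.13e-05).

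Pole was at 5314 and 4937 (day 0) and 3438 and 3849.5 (day 4) in WT, and at 5874 and 5442 (day 0) and 4389.9 and 4325 (day 4) in KO. For Pole, day 4 minus day 0 was −0.49 ± 0.07 (limma adjusted p = 4.01e-05) in WT and −0.38 ± 0.07 (limma adjusted p = 4.94e-04) in KO. Pole2 was at 1118 and 1305 (day 0) and 757 and 713 (day 4) in WT, and at 1230.0 and 1238 (day 0) and 731 and 855 (day 4) in KO. For Pole2, day 4 minus day 0 was −0.72 ± 0.10 (limma adjusted p = 1.57e-05) in WT and −0.64 ± 0.10 (limma adjusted p = 5.02e-05) in KO. Prim1 was at 2689.9 and 2720.4 (day 0) and 1585 and 1763 (day 4) in WT, and at 2439 and 2529 (day 0) and 1489 and 1748 (day 4) in KO. For Prim1, day 4 minus day 0 was −0.69 ± 0.08 (limma adjusted p = 5.09e-06) in WT and −0.62 ± 0.08 (limma adjusted p = 1.76e-05) in KO. In these 3 genes every day 4 library lay below every day 0 library. Rrm2 was at 9150.1 and 8996 (day 0) and 6255 and 6895 (day 4) in WT, and at 10833 and 10599 (day 0) and 4850.5 and 5592 (day 4) in KO. It fell further in KO (−1.04 ± 0.08 (limma adjusted p = 4.42e-08)) than in WT (−0.47 ± 0.08 (limma adjusted p = 9.97e-05)), with an interaction of −0.57 ± 0.11 (limma adjusted p = 4.54e-04), so that KO lay above WT at day 0 and below it at day 4. Rrm1 was at 6289 and 6114 (day 0) and 6399 and 7154 (day 4) in WT, and at 5246 and 5390.4 (day 0) and 4053 and 4411 (day 4) in KO, and Tyms was at 1535 and 1616 (day 0) and 1567 and 1726 (day 4) in WT, and at 2779.7 and 2674 (day 0) and 1784 and 2169 (day 4) in KO. Neither passed in WT (0.13 ± 0.07 (limma adjusted p = 0.139) and 0.06 ± 0.09 (limma adjusted p = 0.558)), and both fell in KO (−0.33 ± 0.07 (limma adjusted p = 0.00111) and −0.47 ± 0.09 (limma adjusted p = 3.93e-04)).

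In WT the largest changes of the 38 in this culture were those of Ccne2, E2f2 and E2f1, and in KO those of Rrm2, Mcm5 and Mcm10. Ccne2 was at 100.2 and 82.4 (day 0) and 236 and 275 (day 4) in WT, and at 121 and 121 (day 0) and 138 and 151 (day 4) in KO. It rose in WT (1.48 ± 0.16 (limma adjusted p = 1.87e-06)), where both day 4 libraries were above all others, and did not pass in KO (0.25 ± 0.16 (limma adjusted p = 0.196)), with an interaction of −1.23 ± 0.23 (limma adjusted p = 3.74e-04). Ccne1 was at 4344 and 4299 (day 0) and 2715 and 2868 (day 4) in WT, and at 1909 and 1976 (day 0) and 1970.3 and 2320.2 (day 4) in KO. It fell in WT (−0.63 ± 0.08 (limma adjusted p = 7.24e-06)) and did not pass in KO (0.14 ± 0.08 (limma adjusted p = 0.14)), and KO lay below WT at day 0 (−1.15 ± 0.08 (limma adjusted p = 1.52e-08) relative to WT). The E cyclins thus changed in opposite directions in WT. E2f1 was at 2382 and 2333 (day 0) and 1259 and 1397 (day 4) in WT, and at 1359 and 1344 (day 0) and 1641 and 1496 (day 4) in KO. It fell in WT (−0.83 ± 0.08 (limma adjusted p = 3.69e-07)) and rose in KO (0.21 ± 0.08 (limma adjusted p = 0.0261)), with an interaction of 1.04 ± 0.11 (limma adjusted p = 2.25e-06). The rise in KO was lost without KO day 0 replicate 1 (adjusted p = 0.0769), KO day 0 replicate 2 (0.1) or KO day 4 replicate 1 (0.148) by limma. E2f2 was at 608 and 595 (day 0) and 241 and 252 (day 4) in WT, and at 219 and 205 (day 0) and 184 and 171 (day 4) in KO. WT at day 0 stood apart above the rest, and KO minus WT at day 0 was −1.50 ± 0.12 (limma adjusted p = 5.18e-08), the lowest value of the 38 in that comparison. For E2f2, day 4 minus day 0 was −1.28 ± 0.12 (limma adjusted p = 2.82e-07) in WT and −0.25 ± 0.12 (limma adjusted p = 0.0751) in KO.

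Lig1 was at 9376 and 9352 (day 0) and 6419.9 and 6960.5 (day 4) in WT, and at 7974 and 7949 (day 0) and 5706 and 5822 (day 4) in KO, with changes of −0.49 ± 0.06 (limma adjusted p = 1.30e-05) in WT and −0.47 ± 0.06 (limma adjusted p = 2.30e-05) in KO. Fen1 was at 2385 and 2449 (day 0) and 2209 and 2382 (day 4) in WT, and at 1936 and 2023 (day 0) and 1291 and 1532 (day 4) in KO. It passed the threshold in KO (−0.49 ± 0.08 (limma adjusted p = 1.41e-04)) and not in WT (−0.08 ± 0.08 (limma adjusted p = 0.442)), and the interaction was −0.42 ± 0.12 (limma adjusted p = 0.0076). The CAF-1 subunits moved differently. Chaf1a was at 3573 and 3373 (day 0) and 3336 and 3850.5 (day 4) in WT, and at 3850.2 and 3688 (day 0) and 2975 and 3108 (day 4) in KO. For Chaf1a, day 4 minus day 0 was 0.05 ± 0.08 (limma adjusted p = 0.612) in WT and −0.31 ± 0.08 (limma adjusted p = 0.00269) in KO. Chaf1b was at 3277 and 3295 (day 0) and 2249.8 and 2161 (day 4) in WT, and at 1675 and 1701 (day 0) and 1589 and 1723 (day 4) in KO. For Chaf1b, day 4 minus day 0 was −0.58 ± 0.07 (limma adjusted p = 4.59e-06) in WT and −0.03 ± 0.07 (limma adjusted p = 0.733) in KO. At day 0 Chaf1b was lower in KO (−0.96 ± 0.07 (limma adjusted p = 2.37e-08)), while Chaf1a did not pass (0.12 ± 0.08 (limma adjusted p = 0.179)).

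**Figure D3:**
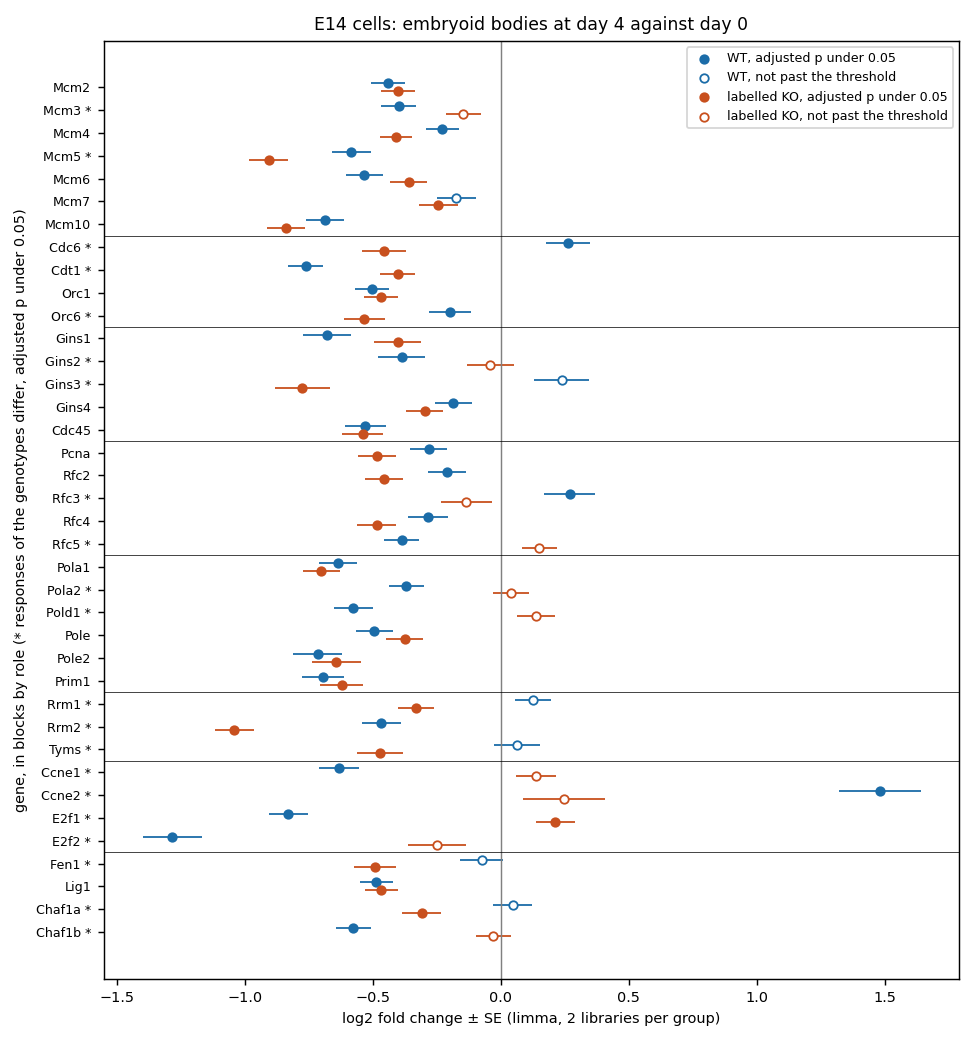
Log2 fold change ± SE of day 4 over day 0 for each member in WT (blue) and KO (orange) E14 cells, 2 libraries per group; filled points passed limma's adjusted p under 0.05, and a star marks a called interaction. Most points lie left of 0, Ccne2 in WT lies at 1.48, and E2f1, E2f2 and Ccne1 lie left in WT with KO near 0.

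**Figure D4:**
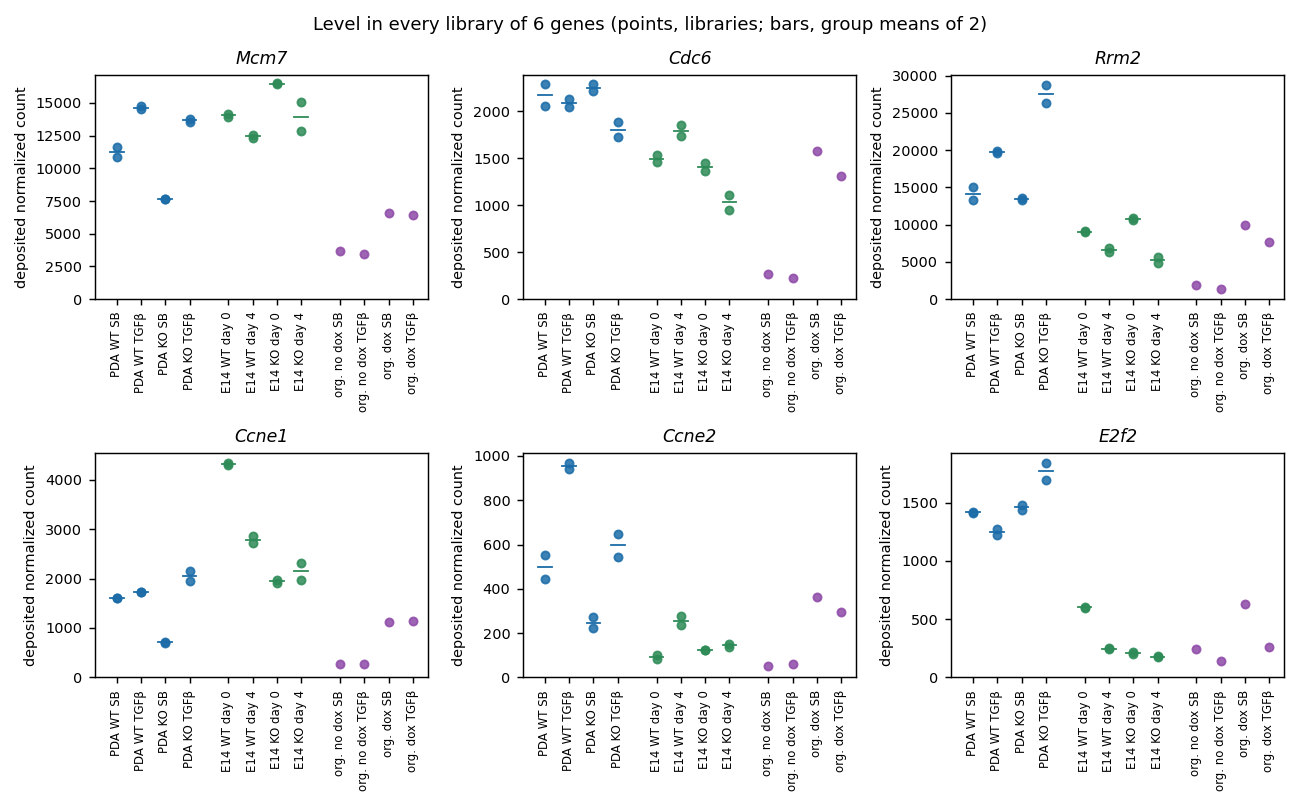
Deposited normalized count of 6 members in every library (points) with the mean of each group of 2 (bars), for PDA cells (blue), E14 cells (green) and organoids (purple, 1 library each), on axes that start at 0. The tables were normalized separately, so levels are compared within a colour; Ccne1 in PDA cells reaches 2158 in KO TGFβ, and E2f2 in E14 cells is high in WT at day 0 alone.

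Of the 51 further replication genes, 28 fell and 3 rose in WT and 34 fell and 9 rose in KO between day 0 and day 4, with medians of −0.27 and −0.33. Over all genes 30.8% fell and 32.3% rose in WT and 30.9% and 29.1% in KO, so in WT the total called was near the share over all genes. Pold2, the accessory subunit of polymerase δ, was at 4911 and 4935 (day 0) and 2467 and 2264 (day 4) in WT, and at 1746 and 1843 (day 0) and 2199 and 1993 (day 4) in KO. Like Pold1 it stood highest in WT at day 0, and it was lower in KO at day 0 (−1.46 ± 0.07 (limma adjusted p = 9.55e-10)), with an interaction of 1.28 ± 0.10 (limma adjusted p = 2.09e-07). Ticrr, which helps CDC45 onto origins, was higher in KO at day 0 by 1.06 ± 0.07 (limma adjusted p = 2.26e-08) and fell in KO (−1.26 ± 0.07 (limma adjusted p = 5.13e-09)). Tk1, the thymidine salvage kinase, was lower in KO at day 0 (−1.47 ± 0.09 (limma adjusted p = 3.70e-09)) and at day 4 (−0.86 ± 0.09 (limma adjusted p = 9.56e-07)).

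Members whose promoter holds an 8-letter E2F word were set beside those whose promoter holds none, as a description and for part of the comparisons only. In PDA cells, 10 of 14 holders and 16 of 17 others rose under TGFβ in KO, with medians of 0.77 and 0.62 (20.6% of all genes rose). Under SB, 5 of 14 holders and 13 of 17 others were lower in KO than in WT, with medians of −0.15 and −0.37. Over all genes 27.2% were lower, so the count of holders was not far above that share. In E14 cells, 10 of 14 holders and 13 of 17 others fell in WT, with medians of −0.52 and −0.39 (30.8% of all genes fell). Cdc6, whose promoter is printed above, holds a word and fell in KO under TGFβ, while Mcm2, which holds none, rose in both genotypes. These counts say nothing about binding.

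In organoids every member was higher with doxycycline than without it. Here a condition is 1 library, so no test between conditions was run, and a log2 ratio is given with an exact 95% interval that covers counting error only. Of 38 members, 37 were more than 1.5-fold higher with doxycycline under SB and 37 under TGFβ, and none was lower by that much (18% of 13443 genes were higher and 18.2% lower under SB, and 16.8% and 18.2% under TGFβ). The median ratio was 2.47-fold under SB and 2.43-fold under TGFβ, with a median log2 ratio of 0.00 and −0.01 over all genes. The summed level of the 38 genes was 52772 (SB) and 45255 (TGFβ) without doxycycline and 123772 and 109034 with it. Gins4 was the 1 member below 1.5-fold, at 0.42 (interval 0.32 to 0.53) under SB and 0.49 (interval 0.37 to 0.62) under TGFβ.

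The largest ratios were those of the E cyclins, Cdc6 and Rrm2. Ccne2 was at 51.0 and 58.8 without doxycycline (SB, then TGFβ) and 362 and 293 with it, a log2 ratio of 2.80 (interval 2.43 to 3.24) under SB and 2.30 (interval 1.90 to 2.76) under TGFβ. Cdc6 was at 266 and 229 without doxycycline (SB, then TGFβ) and 1573 and 1307 with it, with 2.56 (interval 2.39 to 2.74) and 2.51 (interval 2.30 to 2.73). Rrm2 was at 1858 and 1311 without doxycycline (SB, then TGFβ) and 9896 and 7688 with it, with 2.41 (interval 2.35 to 2.48) and 2.55 (interval 2.46 to 2.64). Each of these genes was more than 4-fold higher with doxycycline in both pairs of libraries. Ccne1 was at 263 and 278 without doxycycline (SB, then TGFβ) and 1125 and 1139.6 with it, with 2.09 (interval 1.92 to 2.28) and 2.03 (interval 1.84 to 2.23), and Mcm10 at 511 and 389.8 without doxycycline (SB, then TGFβ) and 1984 and 1586 with it, with 1.95 (interval 1.83 to 2.09) and 2.02 (interval 1.86 to 2.19). The MCM ring genes lay lower in this order, from 0.83 (Mcm7) to 1.38 (Mcm3 and Mcm6) under SB. Mcm7 was at 3692 and 3455 without doxycycline (SB, then TGFβ) and 6565 and 6426 with it.

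The other roles followed. Orc1 was at 123 and 108 without doxycycline (SB, then TGFβ) and 411 and 435 with it, Cdt1 at 722 and 625 without doxycycline (SB, then TGFβ) and 2407 and 1844 with it and Cdc45 at 654 and 421 without doxycycline (SB, then TGFβ) and 2214 and 1635 with it, with log2 ratios under SB of 1.74 (interval 1.48 to 2.02), 1.74 (interval 1.63 to 1.85) and 1.76 (interval 1.64 to 1.88). Pcna was at 4431 and 3484 without doxycycline (SB, then TGFβ) and 8840.3 and 7615 with it, with 1.00 (interval 0.95 to 1.04) and 1.13 (interval 1.07 to 1.19). Pole was at 979.5 and 849.9 without doxycycline (SB, then TGFβ) and 2856 and 2815 with it and Pole2 at 289 and 274 without doxycycline (SB, then TGFβ) and 953 and 859 with it, above the other polymerase genes in log2 ratio (1.54 and 1.72 under SB). E2f1 was at 922 and 877 without doxycycline (SB, then TGFβ) and 2452 and 2016 with it, with 1.41 (interval 1.31 to 1.51) and 1.20 (interval 1.08 to 1.32). Lig1 was at 2158 and 1695 without doxycycline (SB, then TGFβ) and 4729 and 3955 with it, with 1.13 (interval 1.07 to 1.20) and 1.22 (interval 1.14 to 1.31).

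TGFβ against SB gave small log2 ratios in organoids, mostly below 0. Without doxycycline 34 of 38 members were below 0, with a median of −0.21 against −0.003 over all genes. Of these, 2 (Cdc45 and E2f2) were more than 1.5-fold lower, with none higher (8.02% of genes lower and 8.44% higher). With doxycycline 33 were below 0, with a median of −0.21 against −0.02 over all genes. Of these, 1 (E2f2) was more than 1.5-fold lower, with none higher (7.23% and 7.74%). Members past that fold were thus less frequent than among all genes. The share of all genes below 0 was not counted. E2f2 was at 242 and 144 without doxycycline (SB, then TGFβ) and 634 and 265 with it, with −0.74 (interval −1.05 to −0.45) without doxycycline and −1.26 (interval −1.47 to −1.05) with it. Cdc45 was −0.63 (interval −0.81 to −0.46) without doxycycline and −0.44 (interval −0.53 to −0.35) with it. In PDA cells the TGFβ response of E2f2 was −0.19 in WT and 0.28 in KO, and that of Rrm2 was 0.48 and 1.04, where the organoid ratios of Rrm2 were −0.50 and −0.36. The tables were normalized separately, and this difference between cultures was not tested.

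**Figure D5:**
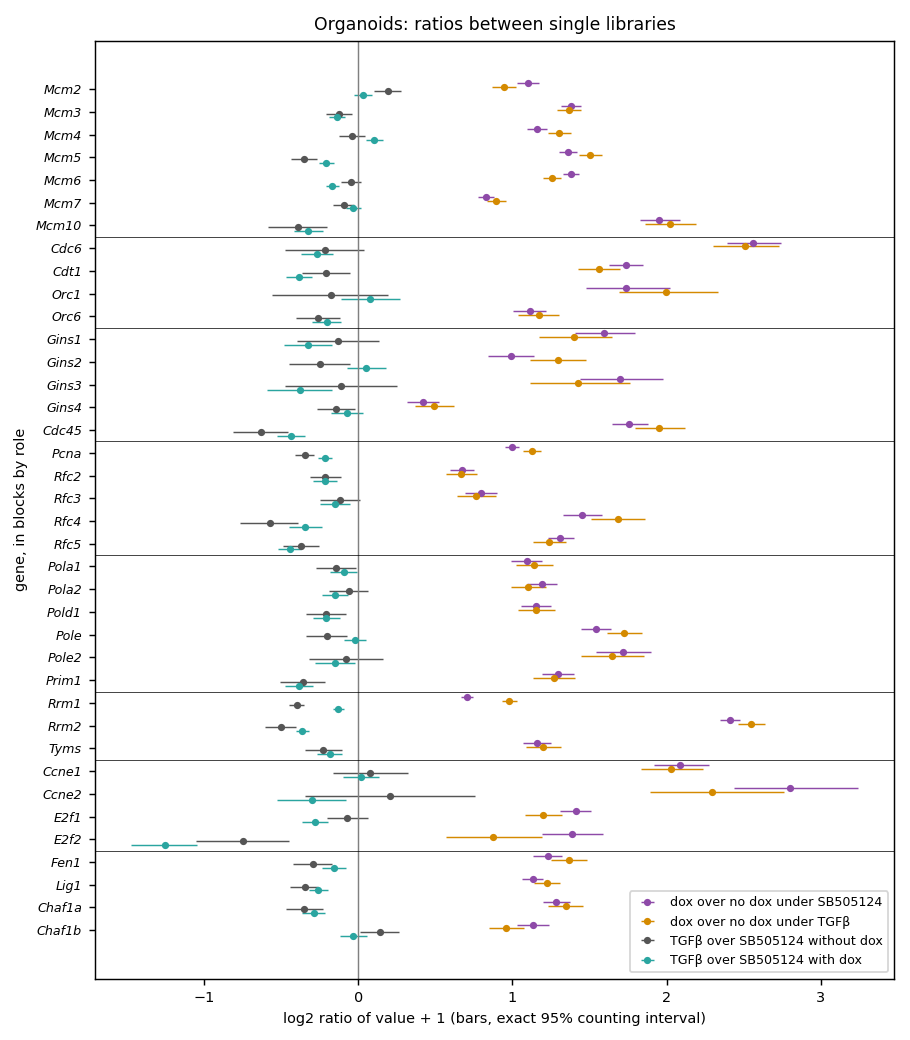
Log2 ratio between single organoid libraries for each member, with exact 95% counting intervals: doxycycline over none under SB505124 (purple) and TGFβ (orange), and TGFβ over SB505124 without (grey) and with (teal) doxycycline. All 38 doxycycline ratios lie right of 0 in both colours, Ccne2 farthest at 2.80, and the TGFβ ratios lie near 0 with E2f2 lowest at −1.26.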

How the data were processed

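Per the labels' protocols, RNA with an integrity number above 9.5 went into TruSeq v2 libraries read from 1 end. That kit keeps no strand, so a gene and an antisense partner cannot be told apart. Per the submitters' processing notes, the build is mm10 and the tools include HTSeq 0.6.1p1, Bowtie2 and DESeq2 3.4, without their order or role. The deposited signal is a normalized read count per gene and library, 1 table per culture. Division by 1 step per library returned whole reads for 100% of values (tolerance 0.01), which gave depth, organoid counting intervals and the count alternatives. Normalization within a table means that levels are not compared across tables, and without transcript lengths they are not compared between genes.

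The 15 ChIP-seq samples and the ATAC-seq sample of the 36 were not analysed here. Genes at 10 or more in 2 or more libraries (organoids: mean of 10) were kept, and limma 3.58.1 (R 4.3.3, trend) was fitted to log2(value + 1) with the 4 groups of a table sharing 1 spread. Fold changes on that scale understate the change of low genes. Calls used a Benjamini-Hochberg adjusted p under 0.05 over all genes tested. Organoid ratios of value + 1 carry exact Clopper-Pearson 95% intervals and count as past at 1.5-fold. On counts simulated for 13226 PDA genes with 200 changed, limma recovered 98% of the 2-fold and 88% of the 1.5-fold changes, and 6.06% of its calls were false. For 15227 E14 genes these shares were 99%, 78% and 4.32%. The simulation gave all genes and groups the same dispersion. In the data the median absolute log2 gap between replicates of the members was 0.169 in WT SB and 0.0386 in WT TGFβ. The simulated shares may therefore not hold for these libraries. The members, gene lists and rule for named genes (29 members in every library, the 3 extremes on each side of each comparison, and up to 3 genes of another list by adjusted p) were chosen with earlier results of these data known. Alternatives were edgeR 4.0.16 and DESeq2 1.42.0 on the recovered reads, pseudocounts of 0.5 and 5, other filters, other scalings, the replicate block and leaving out each library.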

Additional observations from a re-analysis of the deposited data

Results flagged for a closer look

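The results below are those in which the change differed between WT and KO in the same culture by a test of the difference itself (limma interaction, adjusted p under 0.05 over all genes). Values are the log2 change in KO minus that in WT.

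In PDA cells 19 members differed, all with a higher TGFβ change in KO. Of all genes tested, 9.71% had a higher change in KO and 12.1% a lower one, 21.8% together. Ccne1 differed most, at 1.44. Of the helicase genes, Mcm3 differed by 0.45, Mcm6 by 0.46, Mcm7 by 0.46 and Mcm10 by 0.71, and of the origin and GINS genes Orc6 by 0.67 and Gins4 by 0.59. The clamp and its loader gave 0.29 for Pcna, 0.74 for Rfc3 and 0.66 for Rfc5. Polymerase and primase genes gave 0.39 for Pola2, 0.70 for Pole2 and 0.67 for Prim1. Nucleotide supply gave 0.55 for Rrm2 and 0.52 for Tyms. E2f2 differed by 0.46, Lig1 by 0.30, Chaf1a by 0.39 and Chaf1b by 0.36. The count of such members depends on single WT TGFβ, KO SB and KO TGFβ libraries, as given beside the count in the results.

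In E14 cells 21 members differed, in both directions. Of all genes tested, 27.1% had a higher change in KO and 28.6% a lower one, 55.7% together. The count of members was therefore near the share over all genes. A higher change in KO was found for Mcm3 (0.25), Cdt1 (0.36), Gins2 (0.34), Rfc5 (0.54), Pola2 (0.41), Pold1 (0.71), Ccne1 (0.77), E2f1 (1.04), E2f2 (1.03) and Chaf1b (0.55). A lower change in KO was found for Mcm5 (−0.32), Cdc6 (−0.72), Orc6 (−0.33), Gins3 (−1.01), Rfc3 (−0.40), Rrm1 (−0.46), Rrm2 (−0.57), Tyms (−0.53), Ccne2 (−1.23), Fen1 (−0.42) and Chaf1a (−0.36). Marker sums of pluripotent and streak cells also differed between the genotypes at day 4, with values given in the results, and their part was not tested.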

How the results depend on the processing

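Over all alternatives the direction of the members' median kept its sign in each PDA comparison and in the day and genotype comparisons of E14 cells. The E14 interaction median of −0.04 changed sign to 0.02 without WT day 4 replicate 2 (0.0189) and without KO day 4 replicate 1 (0.0244). No single member's called change reversed. Rescaling to the same total gave member medians of 0.73 (KO TGFβ response), 0.45 (PDA interaction), −0.52 and −0.14 (KO minus WT under SB and TGFβ), −0.35 (WT day 4) and −0.21 (KO minus WT, day 4). It gave 0 members lower in the KO TGFβ response, 2 higher and 10 lower in KO under TGFβ, 5 higher (WT) and 2 higher (KO) at day 4, and 4 higher in KO than WT at day 4. It also moved the genes called higher and lower from 2731 and 2382 to 3830 and 1802 (KO response), from 1284 and 1602 to 1869 and 1388 (interaction), from 3828 and 3600 to 2975 and 4901 (KO minus WT, SB), from 2808 and 2508 to 2360 and 3305 (TGFβ), and from 4236 and 4319 to 3428 and 5331 (day 4). Quantile normalization gave medians of 0.68 (KO TGFβ response), −0.48 and −0.11 (KO minus WT under SB and TGFβ), −0.23 and −0.21 (KO minus WT at days 0 and 4). It also gave 1 member lower in the WT TGFβ response and 3 higher at day 4 than at day 0 within KO. DESeq2 gave 2 members higher and 3 lower in KO than in WT under TGFβ. With edgeR, 2 members were higher at day 4 than at day 0 within KO. The cause of these shifts was not tested.

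Libraries with the same replicate number did not deviate together: their deviations correlated from −0.51 to 0.14 in PDA cells and from −0.03 to 0.09 in E14 cells. The lowest value, −0.51, was between WT SB and KO TGFβ. There replicate 1 of either group deviated like replicate 2 of the other. What set this was not tested. With the replicate block, the PDA interaction had 1596 genes called (2886 without it) and 9 members higher, and KO minus WT under TGFβ had 2 members higher and 3 lower. Leaving out each library gave members called higher from 10 to 19 and lower from 0 to 1 (WT TGFβ response, median 0.23 to 0.29, 2254 to 5183 genes), 23 to 36 and 0 to 1 (KO, 0.61 to 0.67, 2956 to 5931), 2 to 20 and 0 (interaction, 0.37 to 0.40, 764 to 3881), 0 and 18 to 24 (KO minus WT under SB, −0.38 to −0.33, 5512 to 7689) and 2 to 8 and 0 to 7 (under TGFβ, −0.06 to −0.04, 3212 to 6148). In E14 cells it gave 1 to 4 and 25 to 30 (WT day 4, −0.45 to −0.40, 7842 to 9990), 0 to 2 and 26 to 29 (KO, −0.46 to −0.34, 7626 to 8847), 8 to 12 and 6 to 15 (interaction, −0.11 to 0.02, 7108 to 8430), 7 to 11 and 12 to 17 (day 0, −0.14 to −0.11, 8663 to 10564) and 5 to 10 and 13 to 19 (KO minus WT at day 4, −0.204 to −0.0895, 6904 to 8452). At a fold of 2, 0 members were lower under TGFβ in organoids without doxycycline. The promoter share was 67.7% with the 7-letter word and 25.8% before the start alone. The 2 libraries a group and the single organoid libraries limit all of these values.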

Other observations

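In organoids, of 25 mitotic genes, 23 were more than 1.5-fold lower under TGFβ than under SB without doxycycline (median log2 ratio −0.81, against −0.21 for the 38 replication genes) and 0 were past that fold with doxycycline (median −0.07), where 8.02% and 7.23% of all genes were lower by that much. The log2 ratio of Cdk1, the mitotic kinase, was −0.94 and −0.13, that of Ccnb1, its cyclin, −1.05 and 0.08, and that of Ube2c, which ends mitosis with the anaphase-promoting complex, −1.25 and −0.06, each without and then with doxycycline. With doxycycline over none under SB, 5 mitotic genes were higher and 1 lower (18% and 18.2% of all genes, median 0.15, against 1.30 for the replication genes), and under TGFβ 18 were higher and 0 lower (16.8% and 18.2% of all genes, median 0.93 against 1.28). Each condition is 1 library, so these ratios have no replicate check.

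In PDA cells, 21 of 25 mitotic genes rose under TGFβ in KO and 8 rose and 1 fell in WT, with medians of 0.48 and 0.15. Over all genes 20.6% rose in KO, and 19.4% rose and 17.6% fell in WT, so the WT total was near the share over all genes. Under SB 7 were lower and 2 higher in KO than in WT (27.2% and 28.9% of all genes). Of the E2F and retinoblastoma pathway genes, 15 rose and 4 fell in KO and 11 rose and 4 fell in WT, out of 28 tested, where 38.7% and 36.9% of all genes were called in KO and WT. Myc, a growth-promoting transcription factor, was at 8881 and 10289 (SB) and 1314 and 1330.2 (TGFβ) in WT, and at 15713 and 16789 (SB) and 2250.4 and 1729 (TGFβ) in KO. Its TGFβ minus SB value was −2.85 ± 0.13 (limma adjusted p = 7.30e-06) in WT and −3.04 ± 0.13 (limma adjusted p = 4.43e-06) in KO. E2f8, a repressor E2F, rose by 0.81 ± 0.06 (limma adjusted p = 8.80e-05) and 0.95 ± 0.06 (limma adjusted p = 3.80e-05). Cdkn1a, the CDK inhibitor p21, was at 3681 and 3639 (SB) and 5795 and 5697 (TGFβ) in WT, and at 6420.4 and 6706 (SB) and 5378 and 5192 (TGFβ) in KO, with 0.84 ± 0.06 (limma adjusted p = 2.38e-05) in KO relative to WT under SB and an interaction of −0.96 ± 0.08 (limma adjusted p = 9.19e-04). In E14 cells Myc was at 395 and 428 (day 0) and 1084 and 1355 (day 4) in WT, and at 528 and 538 (day 0) and 435 and 544 (day 4) in KO, a rise of 1.56 ± 0.12 (limma adjusted p = 6.99e-08) in WT with an interaction of −1.69 ± 0.17 (limma adjusted p = 2.01e-06), and Ccnd2, a D cyclin, rose in WT by 2.11 ± 0.10 (limma adjusted p = 4.97e-10) with an interaction of −2.18 ± 0.14 (limma adjusted p = 3.09e-08).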
